A study of Mus musculus with 18 samples.

Results

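Mesenchymal-enriched cells (MC, negative for CD31 and Kit) were compared with endothelial-enriched cells (EC, positive for CD31 and negative for Kit) among BRE-GFP positive cells of the mouse aorta-gonad-mesonephros region (AGM). The comparison takes 6 of the 18 RNA-seq libraries of the series, 3 of MC and 3 of EC, chosen by the sort gates in the sample titles and paired by culture. All cells came from a C57BL6 strain with the BRE-GFP reporter at embryonic day 11, in which GFP is driven by a BMP-responsive element. Each population was sorted from fresh AGM, from AGM cultured as an explant in conditions that contain BMP and Hedgehog, and from explants exposed to cyclopamine as well, which inhibits Smoothened, the transducer of the Hedgehog signal. The other 12 libraries, which were MC and EC negative for BRE-GFP and CD31 positive, Kit positive hematopoietic cells (HPSC) of both fractions, entered the fit that measures the spread between libraries. All 6 libraries share the strain, the age, the tissue and the reporter signal, and in the text below a library without a named fraction is BRE-GFP positive. The sources do not say how many embryos were pooled for a library, and each combination of population, culture and fraction had 1 library. What the p-values measure is the variation among these libraries, of which some may be technical. The cultures stand in for repeats, so a real difference between cultures in the MC to EC ratio also enters this variation.

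The AGM is the embryonic region where hematopoietic stem cells emerge from arterial endothelium into clusters on the wall of the dorsal aorta. Endothelial cells there hold together through cadherin and claudin junctions, read blood flow and VEGF, and use Notch signaling to take an arterial fate. Mesenchyme, smooth muscle precursors and sympathetic neuroblasts surround the vessel, and BMP and Hedgehog ligands from these tissues act on the aorta. CD31, encoded by Pecam1, marks endothelium, platelets and many blood cells, so a CD31 gate without a leukocyte gate can take in more than endothelium.

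MC libraries held 4547062 (fresh), 15125074 (explant) and 21972063 (cyclopamine) counts in genes, and EC libraries held 16043805, 14825529 and 13109149. The MC fresh library was the shallowest of the 6, and 3 counts in it equal 0.599 CPM, against 0.136 to 0.226 CPM in the other 5 (CPM, counts relative to the library total after TMM scaling, on the usual scale). Genes with at least 1 count numbered 12028 to 18816 in MC and 14460 to 18331 in EC. Spearman correlations of log2 CPM across genes ran from 0.799 to 0.953 between MC libraries, from 0.884 to 0.920 between EC libraries and from 0.760 to 0.911 between MC and EC libraries of the same culture.

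The labelled cell types were set against defining markers. Endothelial markers (Cdh5, Tek, Tie1, Kdr, Emcn and Esam) summed to 59.2 to 192 CPM in MC and to 995 to 5433 CPM in EC. Mesenchymal markers (Pdgfra, Pdgfrb, Prrx1, Twist1, Col1a1, Dcn and Lum) summed to 3127, 4600 and 4499 CPM in MC fresh, explant and cyclopamine, against 881, 3260 and 4222 CPM in the same EC cultures. In the cultured tissue the sum in EC thus came closer to that of MC than in fresh tissue. Single markers did not all come closer in this way. Pdgfra, Pdgfrb and Twist1, given below, were lower in EC than in MC in each culture, as the sum was. The gap of Pdgfra was widest in cyclopamine explants, while that of Twist1 was narrower in cultured tissue. The other markers are not given singly. Libraries of both populations also carried blood cell transcripts, of different kinds. Macrophage markers (Csf1r, Cx3cr1, C1qa, C1qb, Lyz2 and Itgam) summed to 64.1 to 74.9 CPM in MC and 742 to 796 CPM in EC, and platelet markers (Pf4, Ppbp, Gp9, Itga2b and Gp1ba) to 7.46 to 36.8 CPM in MC and 899 to 1890 CPM in EC. Granulocyte markers summed to 9.45 to 15.8 CPM in MC and 47.6 to 336 CPM in EC. Erythroid markers were higher in EC in fresh tissue and higher in MC in the cultured tissue. They summed to 496, 28226.5 and 2736 CPM in MC fresh, explant and cyclopamine, against 1771, 835 and 26.3 CPM in EC. No marker of the 12 sets was at 0 in all 3 libraries of either population. The part of these other cells in each result below was not tested, and in bulk RNA fewer cells of a type and less RNA per cell cannot be told apart.

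Of the gate genes, Pecam1 followed the sort. Pecam1 (chromosome 11) had 2.996, 11.5 and 6.24 CPM in MC fresh, explant and cyclopamine, against 1683, 1459 and 419 CPM in EC in the same order. It fell in MC by 7.33 on the log2 scale, with an SE of 0.61 (edgeR quasi-likelihood test, adjusted p = 6.28e-05), and was the gene of lowest p in the comparison. Each SE in the text is the size of the log2 fold change divided by the square root of the F statistic. It was not estimated separately. Kit (chromosome 5, 75574987 to 75656722, plus strand, RefSeq GRCm38.p6), on which both gates are negative, had 73.3, 20.9 and 81.3 CPM in MC, against 219.9, 199 and 74.1 CPM in EC. The Kit values of the populations overlapped and the gene did not pass (adjusted p = 0.547). As the sort used both proteins, these values describe the gate.

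Every gene that passed was lower in MC. Of 16231 genes tested, 146 (0.9%) had an adjusted p under 0.05, 0 (0%) of them higher and 146 (0.9%) lower in MC (edgeR quasi-likelihood test, Benjamini-Hochberg). The count at an unadjusted p under 0.05 was 851, with 180 higher and 671 lower. Genes of endothelium, macrophages, platelets and blood progenitors stood among those that fell, and 50 of the 146 belong to 1 of the 31 lists described below, against 96 in no list. All 146 were lower in MC in each of the 3 cultures. In 144 of them the 3 MC values lay below the 3 EC values, the exceptions being Msr1 and Prg2. Over all genes tested, the median log2 fold change was -0.02, 1325 genes (8.16%) had all MC values below all EC values and 894 (5.51%) had them above. 

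The number of calls depended on the tool and on single MC and EC libraries. DESeq2 called 60 genes higher and 419 lower, and limma-voom 16 higher and 115 lower. Without 1 of the MC libraries, edgeR called 61 genes (fresh), 54 (explant) or 71 (cyclopamine), without EC fresh 66 and without EC explant 80, and 41 of the 146 passed in all 18 fits that left out 1 library.

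**Figure D1:**
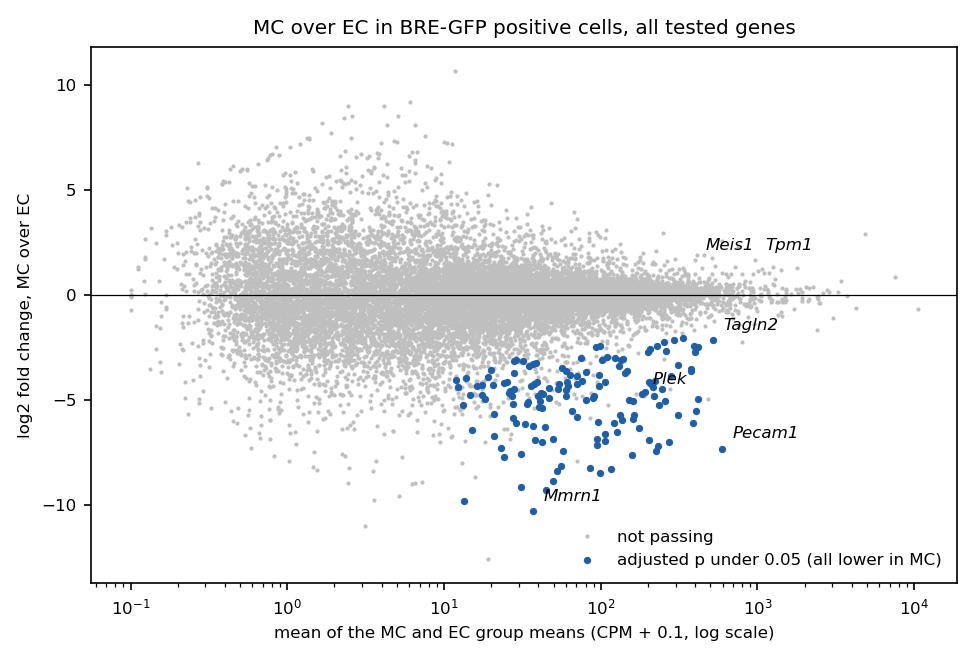
Log2 fold change of MC over EC among BRE-GFP positive cells (vertical axis) against the mean of the MC and EC group means in CPM (log scale, with 0.1 CPM added) for the 16231 tested genes. Blue points are the 146 genes with an adjusted p under 0.05, all below 0; Meis1 and Tpm1 are labelled as genes above 0 that did not pass.

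Promoter windows of 3 genes that fell are shown because the genes stand for the endothelial, progenitor and platelet lists that moved together: Egfl7, which encodes a secreted endothelial factor, Laptm5, which encodes a lysosomal protein of blood cells, and Gp1ba, which encodes a subunit of the platelet receptor for von Willebrand factor. Each is the gene of lowest p in its list whose promoter holds the letters CAGGAAG, a core recognized by ETS factors, the family that includes Fli1. The windows are those of a RefSeq table (GRCm38.p6, plus strand), defined as 250 bases before to 50 bases after a start, and capitals mark CAGGAAG or, on the other strand, CTTCCTG. For Egfl7 the table holds 3 starts, and the first is shown (chr2:26580833-26581132). The windows of Laptm5 and Gp1ba are chr4:130913066-130913365 and chr11:70638872-70639171. For these 2 genes the start behind the window is not the outermost one: Laptm5 is annotated from 130912890, so that its whole window lies within the gene, and Gp1ba from 70639102, so that its window reaches further into the gene than 50 bases.
Egfl7: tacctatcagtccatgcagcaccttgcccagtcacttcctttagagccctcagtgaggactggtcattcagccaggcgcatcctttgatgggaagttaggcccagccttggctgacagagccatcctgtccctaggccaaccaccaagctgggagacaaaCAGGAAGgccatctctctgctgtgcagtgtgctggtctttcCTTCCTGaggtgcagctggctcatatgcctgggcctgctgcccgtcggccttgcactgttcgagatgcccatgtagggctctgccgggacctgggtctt
Laptm5: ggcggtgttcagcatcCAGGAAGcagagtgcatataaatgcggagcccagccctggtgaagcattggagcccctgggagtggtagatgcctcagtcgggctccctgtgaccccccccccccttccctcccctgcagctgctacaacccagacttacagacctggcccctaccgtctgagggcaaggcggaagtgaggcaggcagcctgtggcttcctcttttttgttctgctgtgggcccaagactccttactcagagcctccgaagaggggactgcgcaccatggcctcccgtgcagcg
Gp1ba: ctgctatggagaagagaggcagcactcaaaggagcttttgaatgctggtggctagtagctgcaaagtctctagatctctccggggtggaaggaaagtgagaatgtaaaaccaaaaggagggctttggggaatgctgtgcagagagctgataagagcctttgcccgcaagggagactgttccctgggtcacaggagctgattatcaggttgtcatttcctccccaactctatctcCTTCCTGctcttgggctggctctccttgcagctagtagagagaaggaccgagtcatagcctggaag
Egfl7 holds the letters 1 time on each strand, Laptm5 1 time on the strand shown and Gp1ba 1 time on the other. Of 27025 genes with a promoter in the table, 3503 (13%) hold CAGGAAG on either strand and 3083 (11.4%) hold AGATAA, 1 form of the GATA letters. These 3 windows do not hold AGATAA. Other forms were not searched in the table. The Gp1ba window holds TGATAA, and the Egfl7 window holds TGATAG on the other strand. Only 98 of the 146 genes (67.1%) matched a promoter by symbol, so no share was computed for them.

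Endothelial genes fell in MC. Of 18 pan-endothelial genes, 11 fell and 0 rose, and the median log2 fold change of the list was -5.47. The values of the populations did not overlap for 16 of the 18, against 13.7% of all genes tested. DESeq2 called 17 of them lower and limma-voom 12, and edgeR called 7 with the 6 compared libraries and culture as a block or without the fresh libraries and 5 without the explant libraries. Cdh5, the endothelial cadherin of cell junctions, had 3.60, 3.41 and 1.76 CPM in MC fresh, explant and cyclopamine, against 729.7, 485 and 178 CPM in EC. Its lowest EC value lay far above its highest MC value (-7.18 ± 0.93 (SE) on the log2 scale, adjusted p = 0.00122 by edgeR). Cldn5, the claudin of endothelial tight junctions (chromosome 16, 18776847 to 18778262, plus strand), was close to the limit of detection in MC, with 0.399, 0.209 and 0.226 CPM, against 180.2, 56.1 and 75.7 CPM in EC (-8.39 ± 1.14 (SE) on the log2 scale, adjusted p = 0.00147 by edgeR). Icam2, an adhesion molecule of endothelium and platelets, had 0.799, 1.53 and 1.81 CPM in MC, against 380.1, 460.4 and 111 CPM in EC. Esam, a junction molecule of the same cells, had 15.2, 12.8 and 5.43 CPM in MC, against 950.4, 975 and 380.0 CPM in EC. For both genes the adjusted p was 0.000407 (edgeR), with log2 fold changes of -7.63 and -6.10. Egfl7 had 35.0, 7.58 and 4.57 CPM in MC, against 847, 329 and 94.8 CPM in EC, so that fresh cells held the most of it in both populations (edgeR adjusted p = 0.000919). Tie1, an orphan receptor of the angiopoietin system, also fell (log2 fold change -5.70). Pecam1, Cdh5, Cldn5, Icam2, Esam, Egfl7 and Tie1 passed in every fit that left out 1 library.

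The VEGF receptor gene Kdr had 106, 7.30 and 15.1 CPM in MC, against 1088, 325 and 135 CPM in EC (edgeR adjusted p = 0.0208). Emcn, an endothelial sialomucin (chromosome 3, 137341062 to 137431069, plus strand), had 42.7, 78.6 and 24.4 CPM in MC, against 1234, 727 and 156 CPM in EC (edgeR adjusted p = 0.012). Vwf, which encodes the platelet-binding protein von Willebrand factor, fell to 3.40 to 7.65 CPM in MC, against 64.0 to 761 CPM in EC. Plvap, the diaphragm protein of endothelial fenestrae, and Robo4, a guidance receptor of vessels, fell with log2 fold changes of -7.59 and -6.88. These 5 calls were less firm than the ones above. Without MC fresh the adjusted p was 0.0752 for Kdr, 0.126 for Emcn, 0.0822 for Vwf, 0.173 for Plvap and 0.324 for Robo4, and without MC explant it was 0.165, 0.0659, 0.0563, 0.171 and 0.223 in that order. Other libraries on which 1 or more of these calls depended were MC cyclopamine and all 3 EC libraries (adjusted p up to 0.203). Robo4 also missed the threshold, at up to 0.0829, without HPSC fresh, cyclopamine or explant, or without the BRE-GFP negative libraries of HPSC explant, EC fresh, EC explant, MC cyclopamine or MC explant. Members that did not pass stood low in MC too. Tek, the angiopoietin receptor, had 0.799, 4.73 and 11.4 CPM in MC, against 837, 103 and 44.2 CPM in EC (adjusted p = 0.318), with most of it in fresh EC. Sox17 had 0 counts in all 3 MC libraries and 458 counts in EC, which puts it at least 143.8-fold lower in MC with a floor of 3 counts for the group (adjusted p = 0.132). Sox18, its relative among the SoxF factors, had 0.139 to 0.271 CPM in MC and 7.45 to 27.4 CPM in EC (adjusted p = 0.219).

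Arterial genes fell next to them. Of 16 arterial endothelial genes, 7 fell, 0 rose and 9 did not pass, with a list median of -3.18. DESeq2 called 7 of them lower and limma-voom 5, and edgeR called 2 with the 6 compared libraries and culture as a block, 3 without the fresh and 0 without the explant libraries. Dll4, the Notch ligand of arteries, had 0.200, 1.95 and 0.452 CPM in MC, against 103, 183 and 55.3 CPM in EC (-7.44 ± 1.38 (SE) on the log2 scale, adjusted p = 0.0138 by edgeR). Gja4 and Gja5, connexins of arterial gap junctions, had 0.999 to 8.07 and 1.40 to 7.03 CPM in MC, against 114 to 531 and 168 to 630.5 CPM in EC. Sox7, the third SoxF factor, had 0.599, 0.209 and 0 CPM in MC, against 153, 105 and 37.3 CPM in EC (-8.87 ± 1.80 (SE) on the log2 scale, adjusted p = 0.0251 by edgeR). The chemokine receptor gene Cxcr4 had 0.200, 6.89 and 8.77 CPM in MC, against 15.5, 207 and 43.7 CPM in EC, and was lowest in the fresh library of both populations. Notch4, a Notch receptor of endothelium, and Alox5ap, the activator of arachidonate lipoxygenase that myeloid cells also use, also fell (log2 fold changes -6.71 and -4.22). None of the 7 passed in every fit with 1 library left out: without MC fresh their adjusted p was 0.118 (Dll4), 0.06 (Gja4), 0.262 (Gja5), 0.06 (Cxcr4), 0.126 (Sox7), 0.153 (Notch4) and 0.135 (Alox5ap). Without MC explant or MC cyclopamine the highest value was 0.183 (Sox7), without an EC library 0.153 (Gja5, without EC fresh), and Notch4 missed the threshold at up to 0.0812 without HPSC fresh, cyclopamine or explant or the BRE-GFP negative EC fresh or MC explant library. Of 7 Notch target genes, 0 rose and 0 fell (3 at an unadjusted p under 0.05, 1 lower by DESeq2 and 1 lower with the 9 BRE-GFP positive libraries), with a list median of 0.51.

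Of 10 venous and lymphatic endothelial genes, 2 fell and 0 rose, with a list median of -2.0 (3 lower by DESeq2, 2 by limma-voom). Flt4, the lymphatic VEGF receptor gene that early vessels also use, had 0.599, 2.09 and 0.588 CPM in MC, against 326, 177 and 65.0 CPM in EC. Stab1, a scavenger receptor of sinusoidal endothelium and macrophages, had 43.7, 6.47 and 10.3 CPM in MC, against 880.0, 206 and 146 CPM in EC. Both separated the populations in each culture (edgeR adjusted p = 0.000421 and 0.00122) and passed with any 1 library left out. Aplnr, the apelin receptor of veins, had 3.03 to 4.04 CPM in MC, against 2765, 115 and 20.3 CPM in EC fresh, explant and cyclopamine, and with that range in EC did not pass (adjusted p = 0.165). Nr2f2, the vein-determining factor that mesenchyme also uses, had 371 to 575 CPM in MC and 162 to 329 CPM in EC (adjusted p = 1).

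Further endothelial genes among the 146 stand in no list. Esm1, a proteoglycan of sprouting vessels (chromosome 13, 113209659 to 113218104, plus strand), had 0.399, 1.60 and 0.0452 CPM in MC, against 53.5, 447 and 88.4 CPM in EC, with the highest level in the explant library of both populations (-8.48 ± 1.01 (SE) on the log2 scale, adjusted p = 0.000622 by edgeR). Mmrn1, a multimerin of platelets and endothelium (chromosome 6, 60944317 to 60989378, plus strand), had the largest change of the 146. Its 3 MC libraries held 2 counts and its EC libraries 3419, a ratio of 0.000621 with a 95% interval of 7.52e-05 to 0.00225 that covers counting error only (edgeR adjusted p = 0.0348). Cd93, a receptor of endothelium and early progenitors, had 91.9, 15.4 and 4.30 CPM in MC, against 1105, 1009 and 278 CPM in EC, and fell by 4.93 on the log2 scale. Ushbp1, whose product binds the Usher protein harmonin (chromosome 8, 71384274 to 71395834, minus strand), had 0, 1.53 and 0.0904 CPM in MC, against 63.7, 47.2 and 30.9 CPM in EC. Esm1 passed with any 1 library left out, and the other 3 did not. Without MC fresh the adjusted p was 0.269 for Mmrn1 and 0.191 for Ushbp1, and without MC explant it was 0.221 for Mmrn1, 0.249 for Cd93 and 0.12 for Ushbp1. The other 4 libraries of the comparison, EC fresh and MC cyclopamine and explant of the negative fraction, and 3 HPSC libraries ended 1 or more of these calls at up to 0.253. The endothelial genes Ecscr, S1pr1, Gpihbp1, Nos3 and Klhl4 were picked out after their values were seen. Ecscr, a membrane protein of endothelium, had 5.02 to 19.5 CPM in MC and 157 to 904 CPM in EC, and S1pr1, the sphingosine phosphate receptor, 0.599 to 10.9 CPM in MC and 101 to 474 CPM in EC. Gpihbp1, which carries lipoprotein lipase across capillaries, had 0.200, 6.33 and 1.13 CPM in MC, against 32.5, 1149 and 169.7 CPM in EC. These 3 passed with any 1 library left out. Nos3, the endothelial nitric oxide synthase, had 0.200 to 0.317 CPM in MC and 17.8 to 60.1 CPM in EC, but its adjusted p was 0.212 without MC explant, 0.155 without MC fresh and 0.06 to 0.115 without MC cyclopamine, EC fresh, EC explant or HPSC explant.

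**Figure D2:**
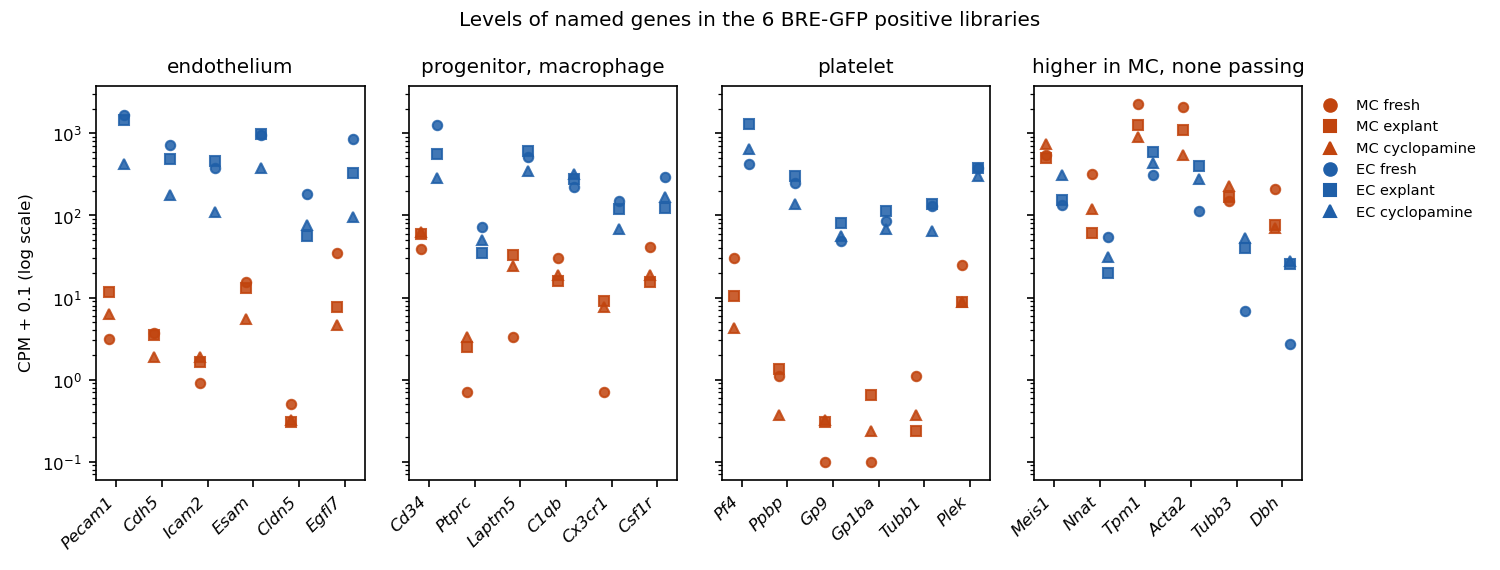
Levels of 24 genes in CPM (log scale, with 0.1 CPM added), MC in orange left of EC in blue; the marker shape gives the culture and each point is 1 library. In the first 3 panels every MC point lies below every EC point of the same gene; in the last panel every MC point lies above every EC point, and none of its 6 genes passed the test.

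Genes of blood cells fell in MC as well. Of 20 progenitor surface and signaling genes, 7 fell and 0 rose, with a list median of -3.49. DESeq2 called 11 of them lower and limma-voom 2, and edgeR called 0 with the 6 compared libraries and culture as a block. Ptprc, which encodes the pan-leukocyte protein CD45, had 0.599, 2.37 and 3.17 CPM in MC, against 72.1, 34.5 and 49.8 CPM in EC (-4.81 ± 0.63 (SE) on the log2 scale, adjusted p = 0.00122 by edgeR). Laptm5 had 3.20, 32.7 and 24.4 CPM in MC, against 519, 605 and 350.2 CPM in EC, and was lowest in fresh MC (edgeR adjusted p = 0.000787). Cd34, a sialomucin shared by endothelium and progenitors (chromosome 1, 194938821 to 194961292, plus strand), had 38.9, 59.2 and 62.8 CPM in MC, against 1251, 564 and 284 CPM in EC. Its level in EC was highest in fresh cells, while the MC values lay close together (edgeR adjusted p = 0.00282). Coro1a and Cd53, a coronin and a tetraspanin of leukocytes, fell with log2 fold changes of -3.46 and -4.46. Rac2, the GTPase of blood cells, fell by 4.25 on the log2 scale, and its adjusted p was 0.0619 without MC fresh and 0.065 without MC cyclopamine. Ptprc, Laptm5, Cd34, Coro1a and Cd53 passed with any 1 library left out. Of 20 hematopoietic transcription factors, 1 fell and 0 rose, with a list median of -1.61 (DESeq2 1 higher and 4 lower, limma-voom 2 lower). Fli1, an ETS factor of endothelium and blood, had 44.7, 58.9 and 47.8 CPM in MC, against 539, 319 and 196 CPM in EC (edgeR adjusted p = 0.00917, and 0.0861 without MC fresh, 0.0659 without EC fresh and 0.0563 without MC explant). Runx1, the factor required for stem cell emergence, had 1.60, 21.2 and 11.5 CPM in MC, against 11.9, 33.1 and 38.3 CPM in EC, with overlapping values (adjusted p = 1). Tal1, a basic helix-loop-helix regulator of blood and endothelium, had 0.200 to 0.904 CPM in MC and 9.03 to 13.0 CPM in EC (adjusted p = 0.654), and Lmo2, its LIM-domain partner, 0.200 to 4.24 CPM in MC and 28.1 to 98.5 CPM in EC (adjusted p = 0.0971).

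Of 20 macrophage genes, 9 fell and 0 rose, with a list median of -3.58. Between the populations 17 of the 20 did not overlap, against 13.7% of all genes tested. DESeq2 called 14 of them lower and limma-voom 1, and edgeR called 0 with the 6 compared libraries and culture as a block or without the explant libraries. C1qb, a chain of complement C1q, had 29.96, 15.8 and 18.5 CPM in MC, against 221, 281 and 319 CPM in EC (edgeR adjusted p = 0.00642). Cx3cr1, the fractalkine receptor of tissue macrophages, had 0.599, 8.97 and 7.64 CPM in MC, against 151, 121 and 69.0 CPM in EC (edgeR adjusted p = 0.0148). Csf1r, the macrophage growth factor receptor, had 41.3, 15.4 and 18.7 CPM in MC, against 296, 122 and 167 CPM in EC (edgeR adjusted p = 0.0383). Lyz2, Cd68 and Cd14 shared a pattern in MC, with 0.999, 0.799 and 0.399 CPM in the fresh library and 9.04 to 21.3 CPM in the cultured ones, against 42.8 to 182 CPM in EC. Itgam, an integrin chain, Tyrobp, a signaling adaptor, and C1qc fell with log2 fold changes of -3.97, -3.67 and -3.55. All 9 calls depended on single libraries. Without MC fresh the adjusted p was 0.0822 for Csf1r, Itgam and Cd14, 0.0751 for Tyrobp, 0.104 for Cx3cr1, 0.135 for Cd68, 0.171 for C1qc and 0.182 for Lyz2, and without MC explant it was 0.0593 for C1qb and up to 0.221 for others (Csf1r). Without MC cyclopamine or EC explant it reached 0.292 and 0.208 (both C1qc), and without EC fresh 0.669 for Csf1r. Csf1r and C1qc also missed the threshold without 5 and 7 further libraries, which were HPSC explant, EC cyclopamine and BRE-GFP negative libraries of all populations, at up to 0.0756. Other genes of white cells that passed were picked out after their values were seen. Lcp1, an actin-bundling protein of leukocytes, had 17.98, 20.8 and 22.5 CPM in MC, against 686, 333 and 178 CPM in EC. The kinase gene Btk, the costimulatory gene Cd86, the integrin gene Itgb2 and the anaphylatoxin receptor gene C3ar1 fell with log2 fold changes of -5.65, -6.43, -5.21 and -4.33, and these 5 passed with any 1 library left out. Msr1, a scavenger receptor, fell too (-4.57), although its 9.13 CPM in MC cyclopamine exceeded the 6.67 CPM of EC fresh, and without MC explant its adjusted p was 0.0949.

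Granulocyte genes were sparse in MC, and 1 of 15 fell, 0 rose, with a list median of -2.77 (4 lower by DESeq2, 0 by limma-voom). Mpo, the myeloperoxidase, had 5.79, 2.99 and 7.23 CPM in MC, against 94.4, 218 and 44.6 CPM in EC, and passed with any 1 library left out (-4.32 ± 0.57 (SE) on the log2 scale, adjusted p = 0.00127 by edgeR). Of 11 mast cell and eosinophil genes, 1 fell and 0 rose, with a list median of -2.50 (1 lower by DESeq2, 0 by limma-voom). Prg2, the eosinophil major basic protein, had 2.40, 0.557 and 0.0904 CPM in MC, against 112, 146 and 0.527 CPM in EC. The EC cyclopamine value lay below that of MC fresh, and the adjusted p of 0.00871 (edgeR) became 0.104 without MC fresh and 0.174 without MC explant.

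Platelet genes showed the lowest list median of all 31 lists, -6.53, with 7 of 15 platelet and megakaryocyte genes that fell and 0 that rose. Values did not overlap for 14 of the 15, against 13.7% of all genes tested. DESeq2 called 12 of them lower and limma-voom 9, and edgeR called 3 without the fresh and 0 without the explant libraries. Pf4, a chemokine of platelet granules (chromosome 5, 90772435 to 90773383, plus strand), had 30.2, 10.2 and 4.11 CPM in MC, against 419, 1316 and 645 CPM in EC (edgeR adjusted p = 0.0237). Ppbp, its neighbor on chromosome 5 (90768518 to 90770063, plus strand), had 0.999, 1.25 and 0.271 CPM in MC, against 248, 304 and 139.7 CPM in EC (edgeR adjusted p = 0.01). Both platelet chemokines were highest in EC after explant culture. Gp1ba (chromosome 11, 70639102 to 70643986, plus strand) had 0, 0.557 and 0.136 CPM in MC, against 85.9, 113 and 69.1 CPM in EC, and Gp9, its partner in the receptor complex (chromosome 6, 87776131 to 87779786, plus strand), 0, 0.209 and 0.226 CPM in MC, against 48.1, 81.0 and 56.7 CPM in EC. Their log2 fold changes were -9.29 ± 2.01 and -9.15 ± 1.82 (SE; edgeR adjusted p = 0.0386 and 0.0227). Tubb1, the tubulin of the platelet marginal band (chromosome 2, 174450595 to 174458380, plus strand), and Clec1b, a C-type lectin receptor that signals in platelets, fell by 8.14 and 6.98. Plek, a protein kinase C substrate of platelets and leukocytes, had 24.8, 8.84 and 8.82 CPM in MC, against 379.8, 377 and 304 CPM in EC, and of the 7 was the gene that passed with any 1 library left out (edgeR adjusted p = 0.00267). Without MC explant the adjusted p was 0.207 for Pf4, 0.0776 for Ppbp, 0.183 for Gp1ba, 0.174 for Gp9, 0.207 for Tubb1 and 0.199 for Clec1b. Without each of the other 5 libraries of the comparison at least 1 of these calls was lost, at up to 0.297 (Tubb1, without EC cyclopamine), and Gp1ba and Clec1b missed the threshold without 4 and 2 further libraries at up to 0.0652, which were HPSC explant and the BRE-GFP negative EC fresh, MC cyclopamine and MC explant libraries. Treml1, a receptor of platelet granules, had 0 counts in MC and 1702 in EC, at least 534-fold lower in MC taking 3 counts over the libraries of the group as the floor (adjusted p = 0.156). Itga2b, the platelet integrin chain CD41 that emerging stem cells also carry, had 2.71 to 5.59 CPM in MC and 76.3 to 109 CPM in EC (adjusted p = 0.063). Rgs18, a G protein regulator of platelets and myeloid cells picked out after its values were seen, had 0.557 to 1.18 CPM in MC and 55.5 to 158 CPM in EC and passed with any 1 library left out (edgeR adjusted p = 0.000421).

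**Figure D3:**
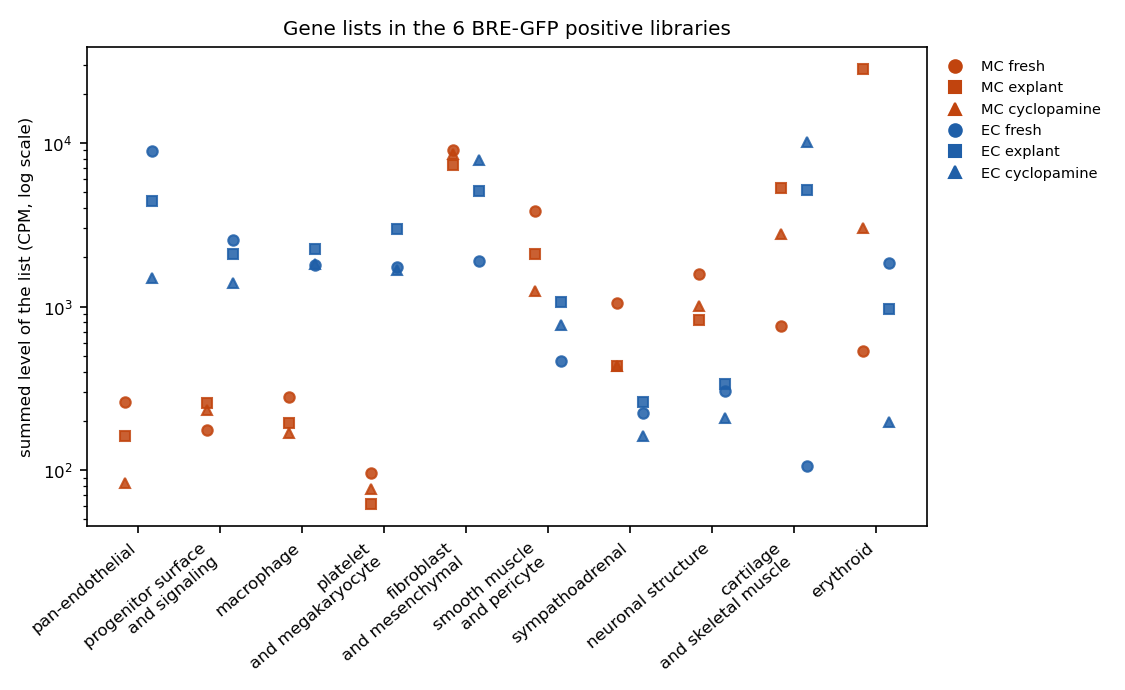
Summed level of 10 gene lists in CPM (log scale), MC in orange left of EC in blue; the marker shape gives the culture and each point is 1 library. The 4 lists on the left lie lower in every MC library than in any EC library. For pan-endothelial genes the range is 83.4 to 259 CPM in MC and 1504 to 8895 CPM in EC. Fibroblast and mesenchymal genes, cartilage and skeletal muscle genes and erythroid genes overlap.

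Calls among genes of signals between cells are given beside the 0.9% called over all genes. Of 24 niche cytokines and chemokines, 1 fell and 0 rose, with a list median of 0.81 (1 higher and 2 lower by DESeq2, 1 lower by limma-voom). Pdgfb, the ligand by which endothelium recruits mural cells, had 0, 1.32 and 1.90 CPM in MC, against 64.2, 102 and 52.7 CPM in EC (edgeR adjusted p = 0.0151, and 0.14 without MC explant, 0.0752 without MC fresh, 0.0557 without EC explant and 0.0541 without EC fresh). Kitl, the stem cell factor gene, had 7.79, 46.3 and 127 CPM in MC, against 481, 285 and 229 CPM in EC, and did not pass (adjusted p = 0.223). Cxcl12, the ligand of Cxcr4, and Wnt5a, a Wnt ligand of mesenchyme, stood the other way round. Cxcl12 had 536, 145 and 226 CPM in MC, against 59.5, 53.9 and 88.4 CPM in EC (adjusted p = 0.563), and Wnt5a 131, 240.2 and 172 CPM in MC, against 8.99, 69.5 and 85.1 CPM in EC (adjusted p = 0.254). Of 15 inflammatory genes, 2 fell and 0 rose, with a list median of -1.78 (3 lower by DESeq2, 2 by limma-voom). These were the macrophage chemokine genes Ccl3, with 0.599, 1.18 and 1.45 CPM in MC, against 27.0, 26.8 and 30.4 CPM in EC, and Ccl4, with 0.200, 4.73 and 2.49 CPM in MC, against 50.3, 65.8 and 35.2 CPM in EC (edgeR adjusted p = 0.00797 and 0.0149). Both lost the call without any 1 of the MC libraries, and Ccl4 also without EC fresh or EC explant (adjusted p 0.0541 to 0.0867). They move beside the macrophage markers given above.

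Among the 146 were Tagln2 and Plk2, genes that many cell types use. Tagln2, an actin-binding transgelin (chromosome 1, 172500246 to 172507375, plus strand), had 110.3, 329 and 150.5 CPM in MC, against 721, 1323 and 488 CPM in EC, and fell by 2.15 on the log2 scale (edgeR adjusted p = 0.00686, and 0.0619 without MC fresh and 0.0533 without EC fresh). Plk2, a polo-like kinase (chromosome 13, 110395044 to 110400844, plus strand), had 88.5, 91.3 and 190.3 CPM in MC, against 995, 796 and 326 CPM in EC. Its adjusted p of 0.0404 (edgeR) was 0.414 without MC fresh, 0.32 without MC explant, 0.358 without EC fresh and 0.15 without EC explant. The call also ended, at up to 0.0647, without HPSC fresh or HPSC cyclopamine of either fraction. The same held for the BRE-GFP negative HPSC explant and MC cyclopamine libraries. Gimap4, a GTPase gene of lymphoid cells (chromosome 6, 48684578 to 48692062, plus strand), had 0.200, 2.02 and 0 CPM in MC, against 259, 222 and 29.0 CPM in EC. It passed with any 1 library left out (-8.25 ± 0.93 (SE) on the log2 scale, adjusted p = 0.000421 by edgeR).

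In the other direction 0 of 16231 genes passed. Meis1, Nnat and Tpm1 had the lowest p on this side among genes that reach 10 CPM in a group mean. Meis1, a homeobox factor of mesoderm and stem cells (chromosome 11, 18880428 to 19019651, minus strand), had 545, 498 and 739 CPM in MC, against 135, 155 and 311 CPM in EC. All MC values exceeded all EC values, with a log2 fold change of 1.65 ± 0.41 (SE) and an adjusted p of 0.0953 (edgeR). Without the BRE-GFP negative EC fresh library it was the 1 gene called higher (adjusted p = 0.0163), and its adjusted p was 0.0488 with the filter on low counts left out, 0.0344 with the 9 BRE-GFP positive libraries and 0.00814 with DESeq2. Nnat, an imprinted proteolipid of neuroendocrine cells (chromosome 2, 157560078 to 157562525, plus strand), had 322, 60.7 and 118 CPM in MC, against 54.4, 19.7 and 31.4 CPM in EC (edgeR adjusted p = 0.117). DESeq2 and limma-voom called it higher (adjusted p = 0.00035 and 0.0466). Tpm1, a tropomyosin of contractile filaments (chromosome 9, 67022590 to 67049672, minus strand), had 2289.6, 1262 and 895 CPM in MC, against 313, 588 and 434 CPM in EC (edgeR adjusted p = 0.142). It passed with the filter on low counts left out (0.0483), with limma-voom (0.039) and with DESeq2 (0.0267).

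Of 24 fibroblast and mesenchymal genes, 0 rose and 0 fell, 4 had an unadjusted p under 0.05, and DESeq2 and limma-voom called 0. The list median was 1.17, and 21 of the 24 had a positive log2 fold change. Pdgfra and Pdgfrb, the receptors for PDGF ligands, were highest in cyclopamine explants in both populations and did not pass. Pdgfra had 178, 229 and 854 CPM in MC, against 100.4, 106 and 242 CPM in EC, and Pdgfrb 157, 233 and 563 CPM in MC, against 40.9, 94.5 and 203 CPM in EC. Their values overlapped between populations. Twist1, a factor of mesenchyme, had 108, 16.1 and 11.98 CPM in MC, against 1.51, 10.2 and 5.95 CPM in EC (adjusted p = 1), a wide gap in fresh cells and a narrow one after culture. Osr1, a factor of intermediate mesoderm, had 14.8 to 28.9 CPM in MC and 0.440 to 13.5 CPM in EC (adjusted p = 1). Of 20 matrix and remodelling genes, 0 rose and 0 fell (3 at an unadjusted p under 0.05, and 1 lower by DESeq2), with a list median of 0.02. Hspg2, the basement membrane proteoglycan perlecan, had 44.5, 18.9 and 21.3 CPM in MC, against 236, 72.5 and 65.9 CPM in EC (adjusted p = 0.291).

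Of 15 smooth muscle and pericyte genes, 0 rose and 0 fell (3 at an unadjusted p under 0.05, and 1 higher by DESeq2 and by limma-voom), with a list median of 1.67. Acta2, the smooth muscle actin gene, had 2081, 1101 and 552 CPM in MC, against 112, 406 and 278 CPM in EC, without overlap (2.29 ± 0.61 (SE) on the log2 scale, adjusted p = 0.142 by edgeR; DESeq2 0.0117). Tagln had 766, 277 and 82.7 CPM in MC, against 40.1, 138 and 44.4 CPM in EC. Myh11 and Cnn1, genes of mature contractile cells, had 23.6 to 138 and 6.78 to 81.5 CPM in MC, against 5.97 to 16.9 and 0.677 to 5.53 CPM in EC. For Acta2, Tagln, Myh11 and Cnn1 the highest value was that of fresh MC. Of 19 cartilage and skeletal muscle genes, 0 rose and 0 fell (2 at an unadjusted p under 0.05, and 1 higher by DESeq2 and by limma-voom), with a list median of -0.35. The cartilage collagen gene Col2a1 had 57.3, 885 and 427 CPM in MC, against 12.4, 1206 and 3375 CPM in EC, so cultured EC libraries stood above MC. Actc1 and Myog, a sarcomeric actin and a muscle regulator, had 316 to 636 and 72.7 to 325 CPM in MC, against 15.3 to 134 and 2.08 to 52.9 CPM in EC (adjusted p = 0.459 and 0.43).

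Neuronal genes had the highest list median, 3.45, with 18 of 18 neuronal structure genes on the positive side. Values did not overlap for 13 of them, against 13.7% of all genes tested, and 0 passed (7 at an unadjusted p under 0.05, and 4 higher by DESeq2, 0 by limma-voom). Tubb3, the neuronal tubulin gene, had 148, 168 and 231 CPM in MC, against 6.73, 40.01 and 53.8 CPM in EC (3.11 ± 0.98 (SE) on the log2 scale, adjusted p = 0.328 by edgeR). Nefm, a neurofilament chain, had 295, 26.7 and 59.4 CPM in MC, against 3.65, 4.98 and 13.1 CPM in EC (adjusted p = 0.662), and Elavl3, a neuronal RNA-binding protein gene, 97.7, 13.3 and 11.5 CPM in MC, against 1.82, 6.72 and 0 CPM in EC (adjusted p = 0.658). Fresh MC held the most Nefm and Elavl3. Of 17 sympathoadrenal genes, 0 rose and 0 fell (3 at an unadjusted p under 0.05, 2 higher by DESeq2 and 1 by limma-voom), 16 lay on the positive side, and the list median was 3.12. Dbh and Th, enzymes of noradrenaline synthesis, had 69.5 to 208 and 39.4 to 91.9 CPM in MC, against 2.64 to 27.8 and 4.21 to 31.3 CPM in EC (adjusted p = 0.734 and 1). Hand2, a transcription factor of sympathetic neuroblasts, had 11.5 to 61.9 CPM in MC and 1.43 to 9.14 CPM in EC (adjusted p = 1). Of 11 neural crest and Schwann genes, 0 rose and 0 fell (2 at an unadjusted p under 0.05, and 1 higher by DESeq2), with a list median of 1.19. Ednrb, the endothelin receptor of crest cells that other tissues also use, had 131 to 373 CPM in MC and 242 to 671 CPM in EC (adjusted p = 0.986).

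Of 18 genes of mesonephros, gonad and coelomic epithelium, 0 rose and 0 fell, with 0 at an unadjusted p under 0.05 or by DESeq2 or limma-voom, and a list median of 1.05. Wt1, the factor of coelomic and gonadal epithelium, had 181, 71.7 and 98.0 CPM in MC, against 18.2, 64.0 and 93.9 CPM in EC, a gap that fresh cells carried (adjusted p = 1). Of 12 primordial germ cell genes, 0 passed (2 lower at an unadjusted p under 0.05, 1 lower by DESeq2), with a list median of -0.42. Of 11 erythroid genes, 0 passed at either threshold or by DESeq2 or limma-voom, with a list median of 1.11. Hbb-y, an embryonic globin gene, had 338, 24739.9 and 2242 CPM in MC, against 1102, 659.5 and 4.97 CPM in EC. The MC explant value exceeded the other 5.

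BMP and Hedgehog genes were not called. With 0.9% called over all genes, the lack of a call does not set such short lists apart. Of 17 BMP target genes, 0 rose and 0 fell (1 each way at an unadjusted p under 0.05, 0 by DESeq2 or limma-voom), with a list median of 0.40. Id2, an inhibitor of differentiation induced by BMP, had 1037, 1005 and 632 CPM in MC, against 332, 479 and 554 CPM in EC (1.02 ± 0.38 (SE) on the log2 scale, adjusted p = 0.622 by edgeR). Smad6, the feedback inhibitor, had 2.22 to 4.24 CPM in MC and 4.98 to 10.6 CPM in EC, and Hhex, a homeobox factor of hemangioblasts, 1.49 to 4.59 CPM in MC and 7.30 to 74.1 CPM in EC (adjusted p = 1 and 0.717). Of 19 BMP ligands and antagonists, 0 passed at either threshold or by DESeq2 or limma-voom, with a list median of 0.46, and Bmp4 had 97.1, 59.0 and 26.5 CPM in MC, against 45.3, 19.5 and 14.7 CPM in EC. Of 14 BMP receptors and SMADs, 0 passed (1 lower at an unadjusted p under 0.05 and by DESeq2), with a list median of 0.01. Eng and Acvrl1, the endothelial receptors for BMP9, had 4.04 to 8.99 and 11.1 to 21.3 CPM in MC, against 20.5 to 129.7 and 16.1 to 139 CPM in EC (adjusted p = 0.395 and 1). Of 13 Hedgehog target genes and 14 Hedgehog ligands and pathway genes, 0 passed at either threshold or by DESeq2 or limma-voom, with list medians of 0.42 and 1.11. Gli1, the target that reports Hedgehog activity, had 41.1, 28.0 and 19.5 CPM in MC, against 0.440, 6.59 and 9.64 CPM in EC, and Gas1, a Hedgehog coreceptor, 206, 84.9 and 96.4 CPM in MC, against 15.6, 43.3 and 59.2 CPM in EC. Neither gene overlapped between the populations, and neither passed (adjusted p = 1 and 0.971). Ihh, the Hedgehog ligand of cartilage, had 0, 0.696 and 0.814 CPM in MC, against 0, 7.33 and 64.0 CPM in EC, where it moved beside Col2a1.

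Genes of general cell programs were not called, which at 0.9% called over all genes does not set such short lists apart. Of 20 cell cycle genes, 15 immediate early and heat shock genes and 17 glycolysis and hypoxia genes, 0 rose and 0 fell in any of these lists (0, 0 and 1 at an unadjusted p under 0.05, and 0 by DESeq2 and limma-voom), with list medians of -0.02, -0.43 and -0.43. The summed level of cell cycle genes was 3395 to 4259 CPM in MC and 2931 to 5429 CPM in EC, and that of immediate early and heat shock genes was lowest in the fresh library of both populations.

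The ratio of MC to EC is given for each culture as a description, since each rests on 1 library of each population. Pan-endothelial genes summed to 259, 161 and 83.4 CPM in MC fresh, explant and cyclopamine, against 8895, 4407 and 1504 CPM in EC. The median log2 ratio of MC to EC over the list, with 1 CPM added to each value, was -6.29 in fresh cells, -4.89 in explants and -3.19 in cyclopamine explants. For venous and lymphatic genes it was -4.35, -1.29 and -0.37. Blood cell lists differed among themselves: macrophage genes stood at -3.14, -3.08 and -3.11, platelet genes at -4.79, -5.39 and -4.96, granulocyte genes at -1.72, -2.99 and -0.04 and erythroid genes at -1.84, 2.36 and 3.25. Mesenchymal genes summed to 9096, 7296 and 8568 CPM in MC, against 1900, 5058 and 7827 CPM in EC, and their median log2 ratio was 2.67 in fresh cells, 0.63 in explants and 0.29 in cyclopamine explants. Smooth muscle genes had ratios of 3.36, 0.43 and 0.58. Cartilage and skeletal muscle genes summed to 760.2, 5323 and 2782 CPM in MC, against 106, 5134 and 10106 CPM in EC, and erythroid genes to 532, 28422 and 3012 CPM in MC, against 1854, 964 and 198 CPM in EC. The MC fresh library was also the shallowest, and the part of depth in these ratios was not tested.

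**Figure D4:**
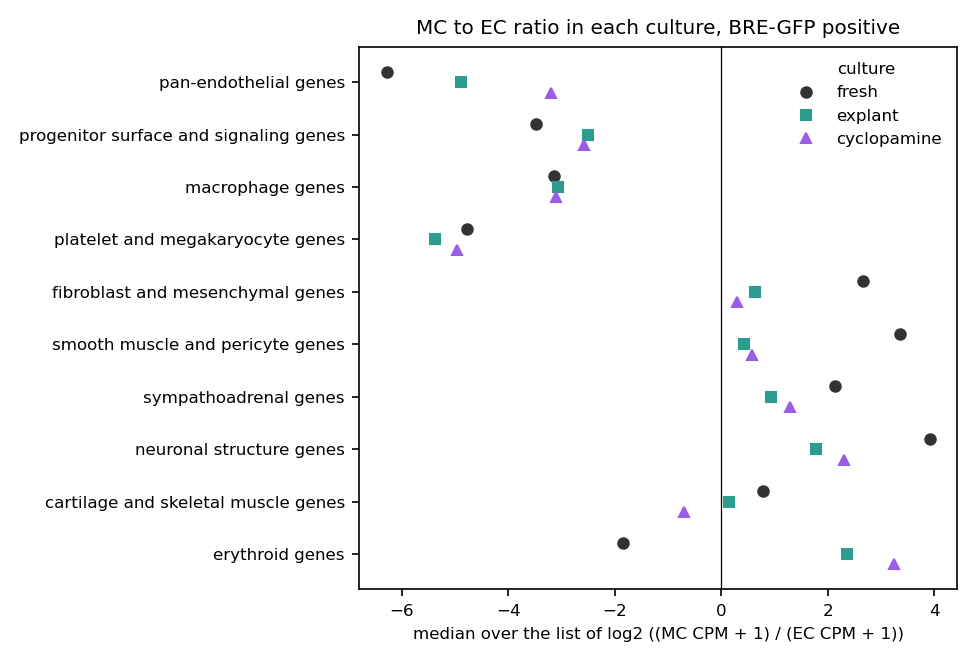
Median over each list of the log2 ratio of MC to EC (CPM + 1) in fresh, explant and cyclopamine cultures, BRE-GFP positive cells; each point compares 1 MC with 1 EC library. Pan-endothelial genes run from -6.29 in fresh to -3.19 in cyclopamine explants and mesenchymal genes from 2.67 to 0.29, while macrophage genes stay between -3.14 and -3.08.

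Most of the genes called in BRE-GFP positive cells were also called in negative cells, and no gene was called for a difference between the fractions. In the negative fraction 177 of 16231 genes (1.09%) passed between MC and EC, 6 (0.037%) higher and 171 (1.05%) lower in MC, with a median log2 fold change of 0.41 over all genes. Of the 146 genes called in positive cells, 99 were also called in negative cells, each in the same direction, which is 67.8% of the 146 and 55.9% of the 177. A test of the difference between fractions called 0 of 16231 genes (0%) with edgeR, with a lowest adjusted p of 1, 436 at an unadjusted p under 0.05, and 68 by DESeq2 and 0 by limma-voom. Of the 146 genes, Ece1 was the 1 with an opposite sign in negative cells. Ece1, the endothelin-converting enzyme (chromosome 4, 137862237 to 137965229, plus strand), had 83.1, 147 and 145 CPM in MC, against 826, 563 and 255 CPM in EC of the positive fraction, a log2 fold change of -2.06 ± 0.44 (SE; edgeR adjusted p = 0.0381), against 0.15 ± 0.41 in negative cells (adjusted p for the difference 1). Its call was lost without MC fresh (0.334), EC fresh (0.332), MC explant (0.232) and EC explant (0.115). It was also lost, at up to 0.0602, without HPSC fresh, HPSC cyclopamine or HPSC explant. The same held for the BRE-GFP negative HPSC explant, EC fresh, MC cyclopamine and MC explant libraries. Plk2 and Klhl4, the second picked out after its values were seen, had log2 fold changes of -2.45 and -4.13 in positive cells and -0.26 and -0.60 in negative cells. Klhl4 had 14.2, 4.94 and 13.2 CPM in MC, against 1019, 131 and 32.1 CPM in EC, and its adjusted p of 0.0305 was 0.295 without MC fresh, 0.254 without MC explant, 0.19 without EC fresh and up to 0.126 without EC explant or either of HPSC fresh and HPSC cyclopamine.

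Further genes of low p for the difference between fractions turned on the negative cells. Anxa1, an annexin of epithelia and leukocytes (chromosome 19, 20373434 to 20390671, minus strand), had 62.7, 348 and 56.8 CPM in MC, against 38.0, 339 and 143 CPM in EC, a log2 fold change of -0.07 ± 0.56 in positive cells against -3.38 ± 0.63 (SE) in negative cells. Ifi204, an interferon-inducible gene, had log2 fold changes of -2.13 and -6.84 in positive and negative cells. Wfikkn2, an inhibitor of GDF8 and GDF11, Adra2b, an adrenergic receptor, and Plekhb1, a membrane protein, had log2 fold changes of 0.60, -1.60 and -2.20 in positive cells. In negative cells they had 4.81 to 25.4, 28.1 to 37.4 and 4.69 to 10.4 CPM in MC, and 0 counts in all 3 EC libraries. The adjusted p for the difference was 1 for all of these. Among lists, macrophage genes had a median of -3.58 in positive and -5.41 in negative cells and 9 and 14 that fell, and pan-endothelial genes had -5.47 and -3.52 with 11 and 7 that fell. Those list differences were not tested.

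**Figure D5:**
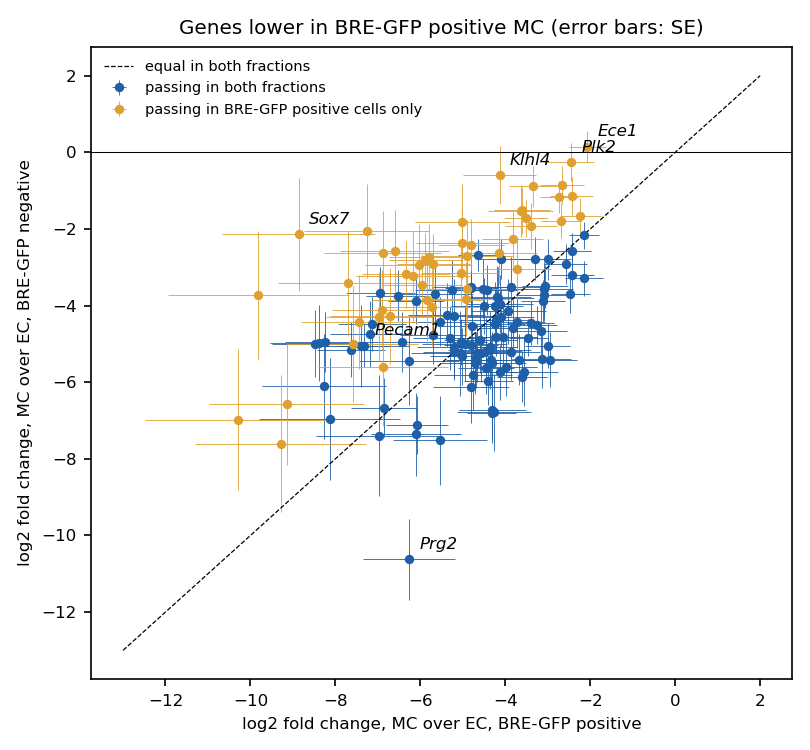
Log2 fold change of MC over EC in BRE-GFP positive cells (horizontal axis) and BRE-GFP negative cells (vertical axis) for the 146 genes called in positive cells. Bars give the SE derived from the F statistic, as in the text. Blue points (99) passed in both fractions and orange points (47) in positive cells; the points were chosen by the horizontal values, and Ece1 is the 1 point above 0.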

How the data were processed

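RNA of sorted cells was prepared with a mirVana kit and the SMARTER protocol, per the labels' protocols. The authors deposited raw read counts per gene symbol for each library, and did not normalize them. TopHat, Cufflinks and HTSeq and build mm10 are named in the submitters' processing notes. Versions, annotation and strand setting were not given in the sources used here, so reads of overlapping and antisense genes cannot be told apart. In the 18 deposited tables, 19.5 to 49.4% of uniquely placed reads were at no annotated feature and 0.479 to 0.935% were ambiguous. These lines stayed out of totals and tests. Reads placed at several sites have their own line in the deposited tables, so genes that have near-identical copies (hemoglobin genes, for example) are undercounted.

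Groups came from the sample titles. The test was the quasi-likelihood F test of edgeR 4.0.16 (R 4.3.3) with TMM scaling, run on all 18 libraries with a threshold of 0.05 on the Benjamini-Hochberg adjusted p, with 6 blocks of culture and fraction and a term for population within each fraction, which left 8 residual degrees of freedom (common biological coefficient of variation 0.908). With 1 library per combination, libraries were paired by the culture the labels give, and pairing carries no repeat libraries. Genes with at least 10 counts at the median library size (0.796 CPM) in at least 3 libraries entered the test (16231 of 21881 symbols). Named genes were the 12 largest changes and 8 highest levels among called genes with at least 10 CPM in 1 group and 1 direction in all 3 cultures, the 6 of lowest p for the difference between fractions, the 3 of lowest p where fewer passed, and members of the lists; predicted genes and small RNAs were skipped. The members and the 31 lists were chosen with earlier results of these data known. Each list is described by its counts and median, beside 0.9% called and a median of -0.02 over all genes. Some list members are counted but not reported here by name. The lists hold gate, pan-endothelial, arterial, venous and lymphatic, Notch target, hematopoietic factor, progenitor, macrophage, granulocyte, mast cell and eosinophil, platelet, erythroid, mesenchymal, smooth muscle, cartilage and skeletal muscle, matrix, sympathoadrenal, neuronal, neural crest and Schwann, mesonephros, germ cell, BMP target, BMP ligand, BMP receptor, Hedgehog target, Hedgehog pathway, niche, inflammatory, immediate early, cell cycle and glycolysis genes. Alternatives were other scalings and filters, DESeq2 1.42.0, limma-voom (limma 3.58.1), no block, fewer libraries, and each library or culture left out. Coordinates and promoters are from RefSeq, GRCm38.p6.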

Additional observations from a re-analysis of the deposited data

How the results depend on the processing

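The count of genes lower in MC, 146, was 139 to 143 with other scalings or a stricter filter and 179 with no filter on low counts. It was 54 to 177 when 1 of the 18 libraries was left out, 76 without the fresh and 28 without the explant libraries, and 155 without the cyclopamine libraries. With the 6 compared libraries alone it was 26 with culture as a replicate block and 49 without it, and with the 9 BRE-GFP positive libraries it was 156. DESeq2 called 419 lower. The count of genes higher in MC was 0, against 3 with no filter, 0 to 1 with 1 library left out, 1 with the 9 BRE-GFP positive libraries, 16 with limma-voom and 60 with DESeq2. The test of the difference between fractions called 0, and 68 with DESeq2. The cause of these shifts between tools and between sets of libraries was not tested. Without the replicate block, 112 genes passed, of which 103 were among the 146.

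Of 125 single gene values, the log2 fold change of Col2a1 changed sign: -0.74 became 0.37 without EC cyclopamine, 0.10 without MC cyclopamine and 0.51 without the cyclopamine libraries, and ran from -1.68 to 0.37 with 1 library left out. Its adjusted p was 0.931 or more in the 3 settings that changed the sign. In the other comparisons of gene and setting, 3321 kept direction and side of the threshold, 467 no longer passed and 65 came to pass. Scaling moved the median of all genes by less than 0.1 on the log2 scale. Depth limits low genes most in MC fresh, where 3 counts equal 0.599 CPM, and 1 library per combination limits every test.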
